A study of Homo sapiens with 52 samples.

Results

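The genes described here were expressed in TeloHAEC and all but absent from Eahy926. They are the symbols whose mean was at least 20 TPM (the share of transcripts, scaled for gene length and to a fixed sum) over the TeloHAEC controls numbered 1.1 to 1.3 and whose TPM was under 0.1 in each of the Eahy926 controls numbered 1.1 to 1.3. The rule found 58 of the 27311 symbols with values in the parental columns, or 0.852% of the 6811 symbols of at least 20 TPM in TeloHAEC control. The opposite rule, on in Eahy926 and silent in TeloHAEC, found 28. Because those 6 control libraries chose the genes, the difference between the lines in them is given as a description, with no test.

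Poly-A-selected RNA was sequenced from 2 human endothelial lines. TeloHAEC derive from human aortic endothelium immortalised by telomerase and were kept in an endothelial medium that contains VEGF. Eahy926 is an endothelial hybrid line that was kept in DMEM with serum. Line and medium therefore cannot be told apart in any comparison between the lines. Both parental lines were left untreated or given IL-1β at 10 ng/ml or TNF-α at 10 ng/ml for 24 h, with 3 libraries a group. A further group of 3 had VEGF added for 24 h in Eahy926, and medium without VEGF for 24 h in TeloHAEC. Each line also had 2 untreated libraries numbered 0.1 and 0.2, which the rule did not use. Another 24 libraries came from TeloHAEC that carry a doxycycline-inducible KRAB-dCas9 repressor, sorted as a pool for high expression of the construct. These cells received 1 of 20 guides against 10 target genes, or 1 of 4 non-targeting guides, and all were kept in doxycycline at 2 µg/ml for 5 days. Separate cultures are not stated in the labels, so p-values measure only the spread between these libraries, which may be technical.

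TPM record the RNA present, not the state of a locus or its promoter, and in bulk samples fewer cells of a type and less RNA per cell cannot be told apart. Endothelial cells line blood vessels, carry receptors for cytokines and growth factors, and secrete factors that act on the vessel wall. Endothelial markers were found in both lines: 8 of 8 were at 1 TPM or more in TeloHAEC control and 7 of 8 in Eahy926 control, where the tight junction gene CLDN5 was listed at 0 in all 3 libraries. Their summed level was 2189 to 2310 TPM in TeloHAEC and 717 to 816.5 TPM in Eahy926. The 6 epithelial markers summed to 2047 to 2134 TPM in TeloHAEC and 4091 to 4153 TPM in Eahy926. In the controls numbered 0.1 and 0.2 the sums overlapped, at 2214 to 2225 TPM in TeloHAEC and 2134 to 2246 TPM in Eahy926. The keratins within that list went both ways: in controls 1.1 to 1.3 KRT19 stood at 1345 ± 34.6 TPM in TeloHAEC and 0.0755 ± 0.131 TPM in Eahy926, and KRT7 at 3.99 ± 0.518 and 2708 ± 45.0 TPM (SD, n = 3). The part of the endothelial or the epithelial list in the absence of the 58 genes was not tested. Library depth is unknown, since TPM keep no read counts. From 12098 to 12987 symbols reached 1 TPM in the parental libraries.

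The 58 genes spread over many functions and over 19 chromosomes. By hand-made classes, written after the values were seen, 12 encode receptors or other surface proteins, 10 ligands, secreted or matrix proteins, 9 enzymes, 7 transcription factors or cofactors, 6 adaptors or G protein signalling proteins, 5 transporters or channel subunits and 4 kinases or cell-cycle regulators, with 5 others. The noncoding RNA XIST is among the others and is counted throughout, but its level is not given. Few of the 27 gene lists written for these data held more than a single one of the genes. Of the 28 endothelial identity genes at 20 TPM or more in TeloHAEC control, 2 were in the set, the kinase BMX and the transcription factor TAL1. Of 4 HOX genes at that level 2 were in it, HOXB2 and HOXB8, and of 6 ADAMTS proteases 2, ADAMTS4 and ADAMTS9. MGP of the matrix list, ZNF385D of the ZNF symbols, the glutamate transporter SLC1A1 of 99 solute carriers at that level, and DAPK1 of the genes often methylated in lung carcinoma were the only ones of theirs. The lists of arterial, venous and lymphatic identity, other antioxidant enzymes, interferon response, collagens and HLA genes gave 0. In that order they hold 6, 14, 13, 12 and 4 genes at 20 TPM or more in TeloHAEC control. With 0.852% of all symbols at that level in the set, 0 of so few is not read as a result.

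PRDX2, a peroxiredoxin that reduces hydrogen peroxide in the cytosol, had the highest level of the 58. It stood at 385, 378 and 378 TPM in TeloHAEC controls 1.1, 1.2 and 1.3, and was listed at 0 in all 3 Eahy926 controls. In the other 11 Eahy926 libraries it was above 0 in only 3, at 0.101 TPM in control 0.1, 0.265 TPM in TNF-α library 1.2 and 0.153 TPM in VEGF library 1.2. Its family did not share the pattern: PRDX1 stood at 1009 ± 17.8 TPM in TeloHAEC and 1388 ± 50.3 TPM in Eahy926 control, and PRDX6 at 391 ± 10.2 and 385 ± 16.3 TPM (SD, n = 3). PRDX3, PRDX4 and PRDX5 were likewise abundant in both lines, with PRDX3 at 273 ± 20.4 and 275 ± 13.6 TPM. PRDX2 was thus the only peroxiredoxin of 6 in the set.

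ALDH2, the mitochondrial enzyme that oxidises acetaldehyde, came next. It stood at 226, 214 and 228 TPM in the TeloHAEC controls and was listed at 0 in the Eahy926 controls. Among the other Eahy926 libraries its highest value was 0.308 TPM, in VEGF library 1.2, and every TeloHAEC library was above 180 TPM. Of 18 aldehyde dehydrogenases, 9 reached 20 TPM in TeloHAEC control and only ALDH2 of these met the rule. ALDH1A1 was placed the other way, at 0.0401 ± 0.0694 TPM in TeloHAEC and 35.1 ± 5.25 TPM in Eahy926 (SD, n = 3). ALDH1B1, another mitochondrial member, stood at 42.9 ± 3.67 TPM in TeloHAEC and 22.3 ± 0.574 TPM in Eahy926. Among the glutathione transferases GSTT1 met the rule, at 33.9 ± 2.52 TPM in TeloHAEC and listed at 0 in Eahy926, whereas GSTP1 stood at 1088 ± 4.61 and 1116 ± 111 TPM.

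The next genes in order of level were mostly surface and signalling proteins. COLEC12, a scavenger receptor of the collectin family, stood at 222 ± 2.03 TPM in TeloHAEC control, close to ALDH2 at 223 ± 7.54 TPM, and the difference of these 2 is within their spread. Below them came the tetraspanin TSPAN11 at 104 ± 3.93 TPM, the Cdc42 exchange factor FGD5 at 90.5 ± 1.19 TPM, TSPAN18 at 84.6 ± 5.72 TPM and the death-associated kinase DAPK1 at 81.5 ± 2.63 TPM. The transcription factor TCF15, the death receptor TNFRSF21, the secreted protein CYTL1, C8orf4, ADAMTS9, the glutaminyl cyclase QPCT, the adaptor SHE and SUSD5 followed, from 77.3 ± 9.81 TPM for TCF15 down to 54.0 ± 1.54 TPM for SUSD5. The median of the 58 means was 36.3 TPM. In Eahy926 control 33 of the 58 were listed at 0 in all 3 libraries, and the highest mean was 0.0483 TPM, of the guanine nucleotide exchange factor PLEKHG1.

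The thresholds fell among neighbouring values. Just inside the TeloHAEC limit were CERS6 at 20.1 TPM, BMP2 at 20.3 TPM and RGS16 at 20.9 TPM, and just outside were ARHGAP6 at 19.3 TPM, GALC at 18.8 TPM and DNALI1 at 18.6 TPM. At the Eahy926 limit the highest control library was 0.0972 TPM for CERS6, 0.0914 TPM for TNFRSF21 and 0.0888 TPM for HOXB8 inside, and 0.102 TPM for LRIG1, 0.111 TPM for TPPP and 0.111 TPM for PMEPA1 outside.

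No treatment of Eahy926 brought any of the 58 genes to 1 TPM. Over the 11 Eahy926 libraries that the rule did not use, 638 values were read, of which 473 were listed at 0, 596 were under 0.1 TPM and 3 were at 0.5 TPM or more. The highest was 0.791 TPM, for the growth factor FGF16 in VEGF library 1.1, and FGF16 was listed at 0 in the other 2 VEGF libraries. The other 2 of at least 0.5 TPM were MGP, an inhibitor of vascular calcification, at 0.702 and 0.678 TPM in controls 0.1 and 0.2. For 10 genes all 14 Eahy926 libraries were listed at 0. In all 58 the lowest of the 14 TeloHAEC libraries was above the highest of the 14 Eahy926 libraries. The same held for 2835 of all symbols, or 10.4%. Both sets of 14 include the control libraries that chose the genes, so the separation of the 58 is partly set by the rule. These counts are therefore given as a description, with no test.

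**Figure D1:**
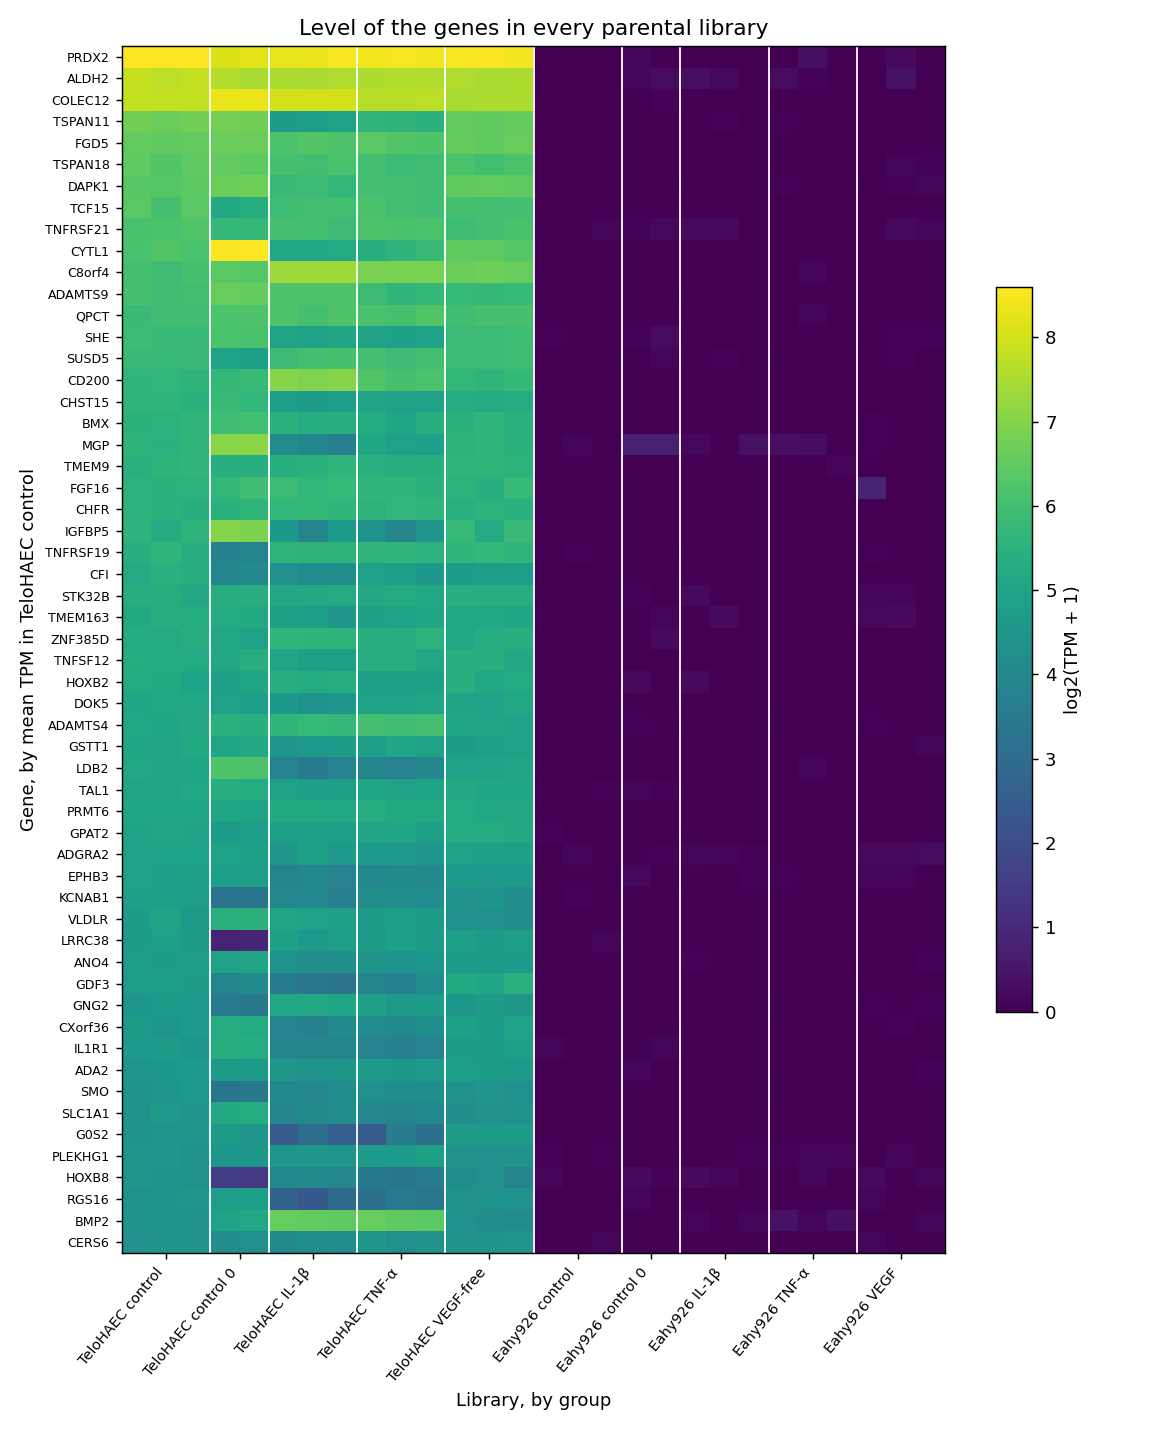
Level of 56 of the genes (rows, ordered by their mean in TeloHAEC control; XIST and 1 other are not drawn) in the 28 parental libraries (columns, by group), as log2(TPM + 1) in colour. The TeloHAEC columns are bright in nearly every row and the Eahy926 columns are dark in all rows, with no Eahy926 library at 1 TPM. LRRC38 and HOXB8 are dark in TeloHAEC control 0.

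Tests used limma on log2(TPM + 1), with p-values adjusted by Benjamini-Hochberg over all genes fitted, and a call needed an adjusted p under 0.05. In Eahy926 with IL-1β 0 of the 58 were called by limma, with 0 at an unadjusted p under 0.05, and 0.00738% of all genes were called. With VEGF 0 were called, against 0.00738% of all genes called, and 1 was at an unadjusted p under 0.05. All 58 entered these fits through TeloHAEC alone and lay under 0.1 TPM in the Eahy926 controls. A fall from there cannot be measured, so counts near 0 are not read as a lack of response. With TNF-α 1 was called, against 20% of all genes. That gene was BMP2, a bone morphogenetic protein ligand, at 0.344, 0.0868 and 0.286 TPM in the TNF-α libraries and listed at 0 in the 3 controls. Its groups do not overlap and its log2 change was 0.30 ± 0.084 (SE), with a limma adjusted p of 0.0128, but all its levels in these libraries lie under 0.5 TPM. The controls of this test chose the genes for low values, which can by itself favour a rise, and BMP2 passed the filter on low values, 1 TPM in at least 3 libraries, through TeloHAEC alone. The call ended when only the 2 groups were fitted (adjusted p = 0.113), without TNF-α library 1.1 (0.0792) and without TNF-α library 1.3 (0.0544).

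Under treatment, in libraries that did not choose the genes, the difference between the lines was tested directly. The filter on low values let each of the genes in through TeloHAEC alone, since none reached 1 TPM in Eahy926, so the count is given with no filter. All 58 were then called higher in TeloHAEC than in Eahy926 under IL-1β, against 17.1% of all genes, and under TNF-α, against 17.5%. The smallest log2 difference was 2.66 under IL-1β and 3.09 under TNF-α, and the largest 8.37 and 8.33, both of PRDX2. With the filter the shares of all genes called higher were 32.6% and 33.4%.

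The untreated libraries numbered 0.1 and 0.2 gave the same order of the lines, but not the same levels. With no filter on low values all 58 were called higher in TeloHAEC, against 15.7% of all genes. With the filter, which LRRC38, an auxiliary subunit of potassium channels, did not pass, 57 genes remained to be tested, again let in by TeloHAEC alone, and 34.8% of all genes were called higher. In TeloHAEC controls 0 the mean was at least 20 TPM for 48 of the 58 and at least 1 TPM for 57. Only 36 (62.1%) lay within 1.5 times of their mean in controls 1.1 to 1.3, beside 93.5% of all symbols of at least 20 TPM in TeloHAEC control. A further 11 were over 1.5 times higher in controls 0 and 11 over 1.5 times lower. These ratios involve the control libraries that chose the genes and carry no test.

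Departures from controls 1.1 to 1.3 went both ways, and the largest ratio was that of LRRC38. It stood at 0.778 and 0.872 TPM in controls 0 and at 26.1, 28.1 and 25.9 TPM in controls 1.1 to 1.3. The homeobox transcription factor HOXB8 stood at 2.00 and 1.71 TPM against 22.2, 20.6 and 20.4 TPM. The receptor TNFRSF19 stood at 13.2 TPM in controls 0 against 43.3 TPM, and KCNAB1, a potassium channel beta subunit, at 8.91 against 27.5 TPM. In the other direction CYTL1, a secreted protein, stood at 362 and 378 TPM in controls 0.1 and 0.2 and at 68.2, 75.8 and 71.0 TPM in controls 1.1 to 1.3, which is 5.17 times higher in the former. MGP stood at 135 TPM in controls 0 against 46.3 TPM, IGFBP5, which binds insulin-like growth factors, at 123 against 44.0 TPM, and the LIM-domain cofactor LDB2 at 73.1 against 32.8 TPM. For each of these genes the libraries of each pair or trio lie close together and the sets do not overlap. What separates controls 0 from controls 1 is not in the labels, which give the same medium for both.

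**Figure D2:**
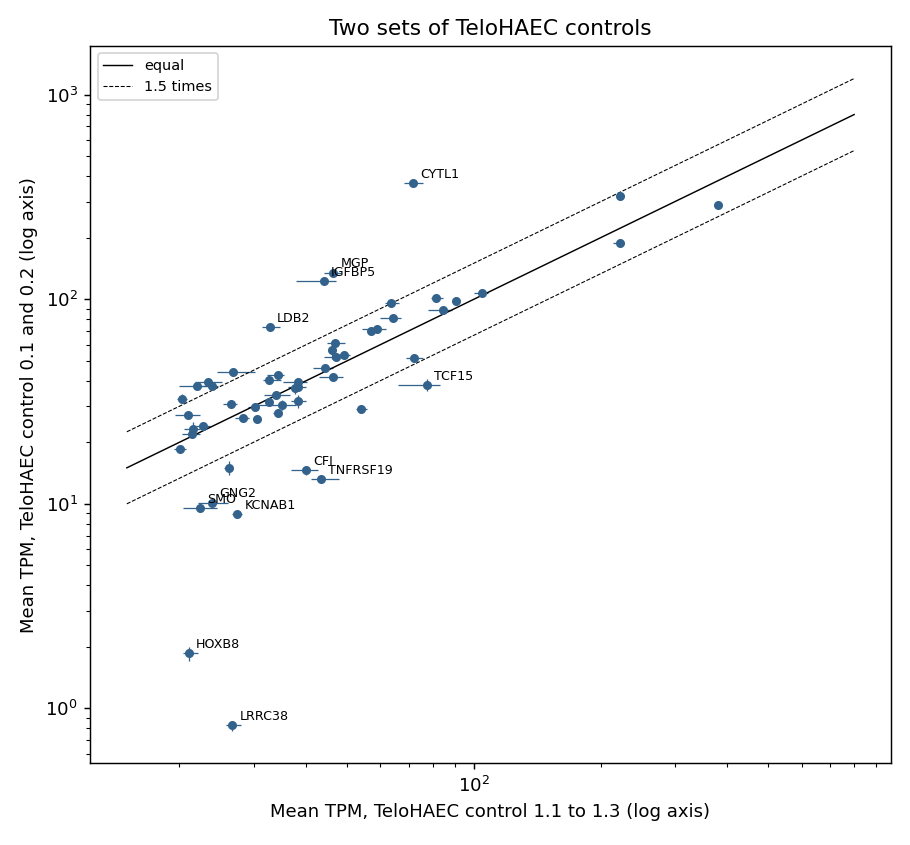
Mean TPM of 56 of the genes (points; XIST and 1 other are not drawn) in TeloHAEC controls 0.1 and 0.2 against controls 1.1 to 1.3, on log axes, with bars from the lowest to the highest library. Dashed lines mark 1.5 times; CYTL1 lies far above them and LRRC38 and HOXB8 far below, and genes over 2 times apart are named.

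In TeloHAEC the genes responded to the cytokines, mostly downward. With IL-1β 9 rose, against 9.92% of all genes, and 33 fell, against 21.2%. With TNF-α 7 rose, against 8.27%, and 29 fell, against 9.95%. The shares here and below cover all genes that passed the filter of 1 TPM, while the 58 were chosen at 20 TPM or more in TeloHAEC control. No share matched for level was computed, so the part of level in these counts was not tested. The median log2 change of the 58 was -0.26 with IL-1β and -0.22 with TNF-α, beside -0.07 and -0.02 for all genes. The split with IL-1β depended on scaling: 15 rose of 43 called after scaling by the median of ratios and 14 of 43 after quantile normalisation. With a pseudocount of 0.1 fewer were called, 6 higher and 22 lower with IL-1β and 4 higher and 17 lower with TNF-α. The 2 treatments share their control libraries, so their values are given side by side and their overlap is not read as a result. The controls shared by both also chose the genes, and no treated library entered the rule. A choice of genes for high control values can by itself favour falls.

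Of the 58 as a whole 33 fell and 9 rose with IL-1β, and 29 fell and 7 rose with TNF-α. Of all genes 21.2% fell and 9.92% rose with IL-1β, and 9.95% fell and 8.27% rose with TNF-α. The classes were made by hand after the values were seen, and differences between them were not tested. By role, 6 of the 10 secreted or matrix genes fell and 2 rose with IL-1β, and the counts were the same with TNF-α. Of 12 receptor and surface genes 6 fell and 3 rose with IL-1β, and 6 fell and 1 rose with TNF-α. Of 7 transcription factors and cofactors 5 fell and 1 rose with IL-1β, and 5 fell and 0 rose with TNF-α. Of 5 transporter and channel genes 4 fell with each cytokine. Of 6 adaptor and G protein signalling genes 4 fell and 1 rose with IL-1β, and 3 fell and 1 rose with TNF-α. Of 4 kinases and cell-cycle regulators 1 fell with IL-1β and 2 with TNF-α, and of the 5 others 2 fell and 1 rose with each. Of 9 enzymes 5 fell and 1 rose with IL-1β, and 1 fell and 2 rose with TNF-α. Those that fell with IL-1β included PRDX2 (log2 change -0.21 ± 0.078 SE, limma adjusted p = 0.0465) and ALDH2 (-0.26 ± 0.093, adjusted p = 0.0354). Both lie close to the threshold, and neither call is among the single-gene results read under alternatives. The median log2 change of all genes with IL-1β was -0.0671, and -0.00955 after scaling by the median of ratios. With TNF-α neither PRDX2 (-0.14 ± 0.078, adjusted p = 0.267) nor ALDH2 (-0.23 ± 0.093, adjusted p = 0.0981) passed. Their TNF-α libraries still lay below every control library, at 338, 352 and 350 TPM for PRDX2 and 185, 195 and 189 TPM for ALDH2. The SE of these changes also holds the spread of near-0 values in Eahy926. A difference between the cytokines for these 2 genes was not tested.

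BMP2 had the largest rise with each cytokine. It went from 20.4, 20.8 and 19.8 TPM in control to 95.6, 91.5 and 87.2 TPM with IL-1β and 96.3, 90.0 and 86.0 TPM with TNF-α. Every treated library was above every control library, and the log2 changes were 2.12 ± 0.084 (SE, limma adjusted p = 9.65e-15) and 2.10 ± 0.084 (adjusted p = 2e-14). C8orf4 rose from 65.3, 60.0 and 67.2 TPM to 160, 160 and 166 TPM with IL-1β and to 114, 114 and 115 TPM with TNF-α. CD200, an immunoregulatory surface glycoprotein, rose from 49.2 ± 1.77 to 128 ± 4.58 TPM with IL-1β. ADAMTS4, an aggrecan-cleaving protease, rose from 34.2 ± 1.64 to 63.1 ± 1.09 TPM with TNF-α (SD, n = 3). None of these groups overlapped.

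Falls were of like size. TSPAN11 went from 105, 100 and 108 TPM to 25.9, 26.8 and 29.9 TPM with IL-1β, a log2 change of -1.89 ± 0.067 (SE, limma adjusted p = 1.23e-15), and to 47.8, 47.5 and 45.3 TPM with TNF-α. RGS16, which ends signalling by G protein alpha subunits, went from 20.9 ± 1.39 to 5.43 ± 1.34 TPM with IL-1β. With TNF-α, G0S2, an inhibitor of triglyceride lipase, stood at 4.53, 11.4 and 8.05 TPM against 20.5, 21.9 and 22.3 TPM, and IGFBP5 at 18.5 ± 3.96 against 44.0 ± 5.35 TPM. G0S2 varied widely among its treated libraries, though none reached a control.

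IL1R1, the signalling receptor for IL-1, is among the 58. It stood at 23.3, 25.2 and 21.7 TPM in TeloHAEC control, at 14.2, 14.2 and 14.3 TPM with IL-1β and at 13.0, 12.4 and 12.9 TPM with TNF-α. Both treated groups lay below all controls, with log2 changes of -0.68 ± 0.075 (SE, limma adjusted p = 2.46e-07) and -0.83 ± 0.075 (adjusted p = 1.91e-08). In Eahy926 it stood at 0.0823, 0.0260 and 0 TPM in control, at 0.0354 and 0.0794 TPM in controls 0, and was listed at 0 in all 9 libraries with IL-1β, TNF-α or VEGF.

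**Figure D3:**
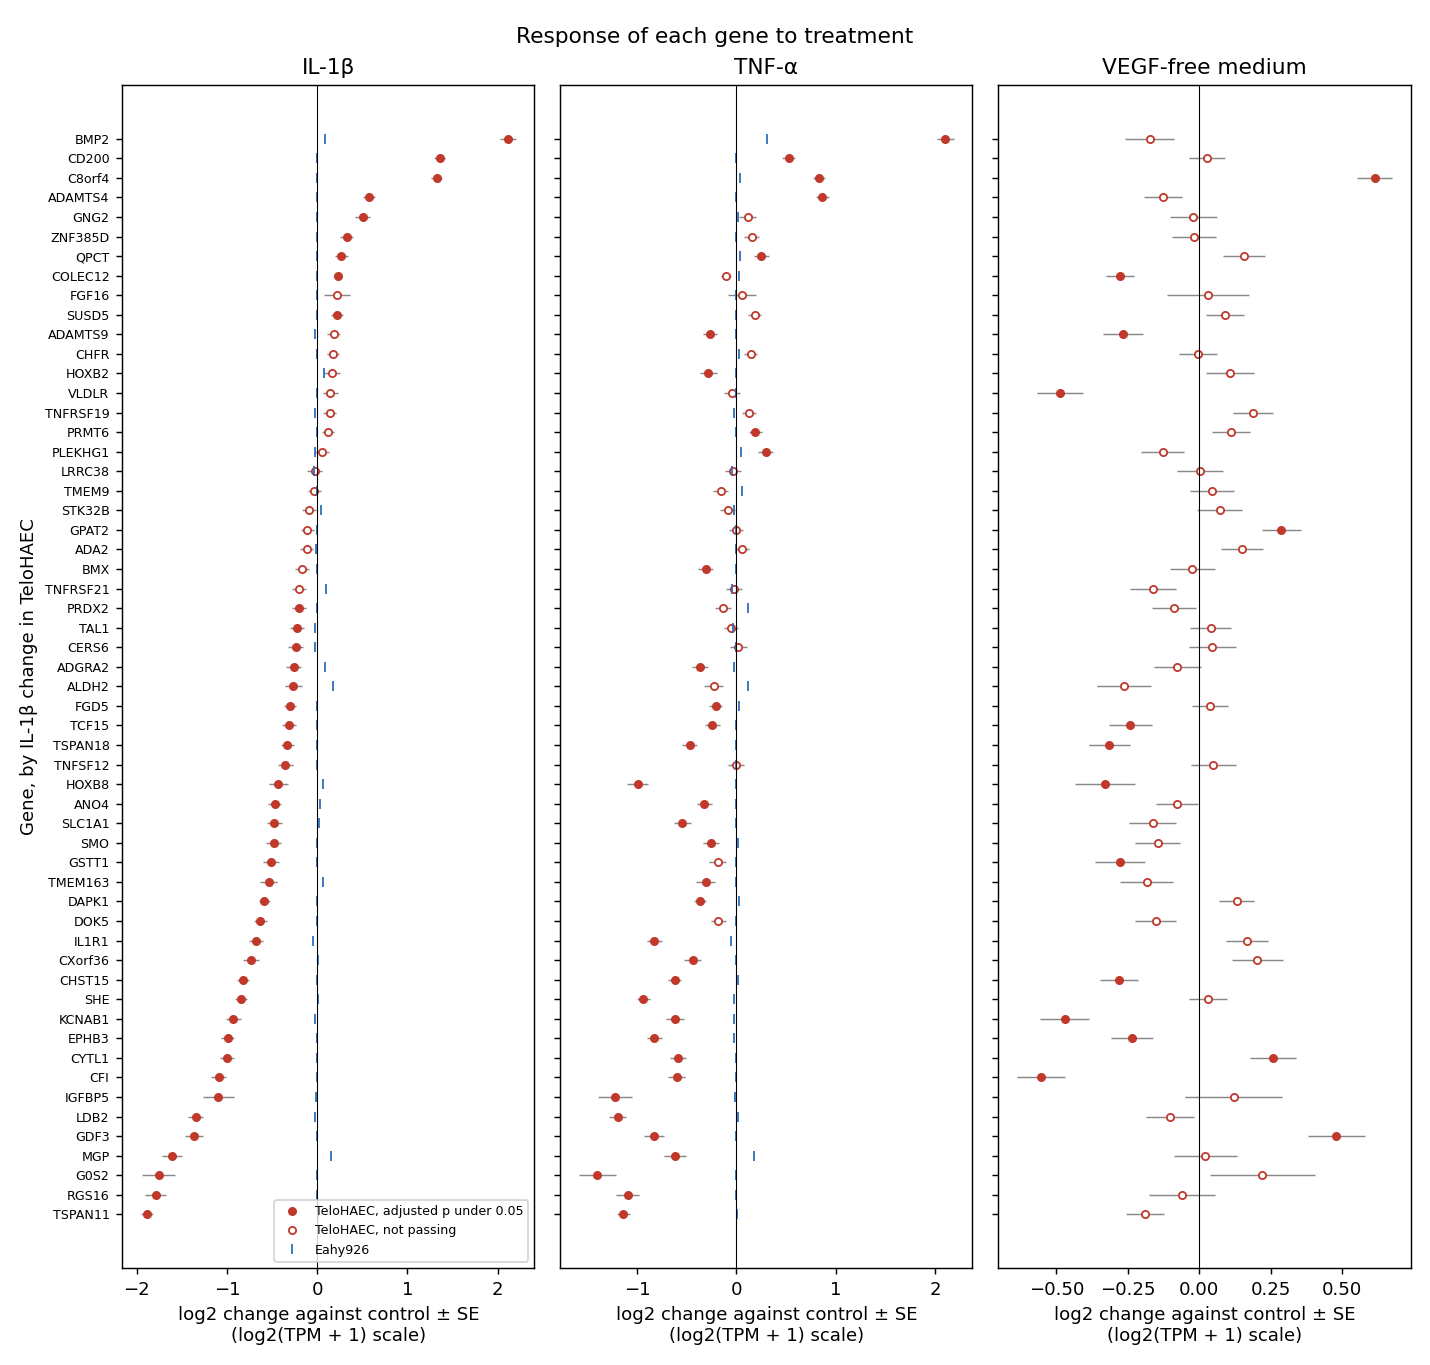
Log2 change of 56 of the genes (rows, ordered by the IL-1β change in TeloHAEC; XIST and 1 other are not drawn) against untreated control, on the log2(TPM + 1) scale, with bars of 1 SE; filled red points passed at an adjusted p under 0.05, open red points did not, and blue ticks are Eahy926. BMP2 is highest in both cytokine panels at 2.12 and 2.10, most points lie below 0, and the blue ticks stay near 0.

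The difference in response between the lines was called for 37 of the 58 with IL-1β, against 22.5% of all genes, with TeloHAEC more positive in 7 and more negative in 30. With TNF-α it was called for 24, against 10.3%, with 4 more positive and 20 more negative. With levels near 0 in Eahy926 a fall there cannot be measured, so for genes that fell in TeloHAEC the difference restates the response of that line. All of the genes entered this fit through TeloHAEC alone. In Eahy926 0 were called with IL-1β and 1 with TNF-α, so for genes that rose the difference largely restates that response too. With a pseudocount of 0.1 the counts were 21 and 12.

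Medium without VEGF moved fewer of the genes, and by less. In TeloHAEC 4 rose, against 9.1% of all genes, and 11 fell, against 4.02%. The complement regulator CFI went from 36.8, 42.8 and 40.1 TPM to 25.8, 27.2 and 27.5 TPM, a log2 change of -0.55 ± 0.084 (SE, limma adjusted p = 0.000129). The lipoprotein receptor VLDLR went from 26.8 ± 2.96 to 18.8 ± 0.798 TPM, and KCNAB1 from 27.5 ± 0.740 to 19.6 ± 1.60 TPM. C8orf4 rose from 64.2 ± 3.70 to 98.7 ± 3.56 TPM, GDF3, a ligand of the TGF-β family, from 26.2 ± 0.516 to 37.1 ± 5.65 TPM, and the acyltransferase GPAT2 from 30.5 ± 0.706 to 37.4 ± 0.669 TPM. None of these groups overlapped. The count of 15 fell to 9 without TeloHAEC control 1.1 and to 4 with a pseudocount of 0.1, where KCNAB1 (adjusted p = 0.0753) and GPAT2 (adjusted p = 0.347) were lost.

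Promoter sequence was examined because CpG-rich and CpG-poor promoters are controlled in different ways. DNA methylation was not analysed here. RefSeq promoter entries on GRCh38.p14 were matched for 40 of the 58 genes, in 63 windows, and the 250 bases before each start were read. The other 18 had no entry, among them ALDH2, BMP2, TCF15, MGP, HOXB2, HOXB8, ADAMTS4 and ADAMTS9. A window was called CpG-rich at a GC share of at least 50% and an observed over expected CpG ratio of at least 0.6. Of the 40 genes 25 (62.5%) had such a window, beside 88.6% of the symbols of at least 20 TPM in TeloHAEC control and 62.0% of all symbols of the parental columns. The median ratio was 0.584 in the windows of the 40 genes, 0.820 in those of the expressed symbols and 0.693 in all. CpG-rich windows belonged to PRDX2, DAPK1, CHFR, TAL1 and SMO among others, and CpG-poor windows to FGD5, BMX, CYTL1, IGFBP5 and CFI.

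**Figure D4:**
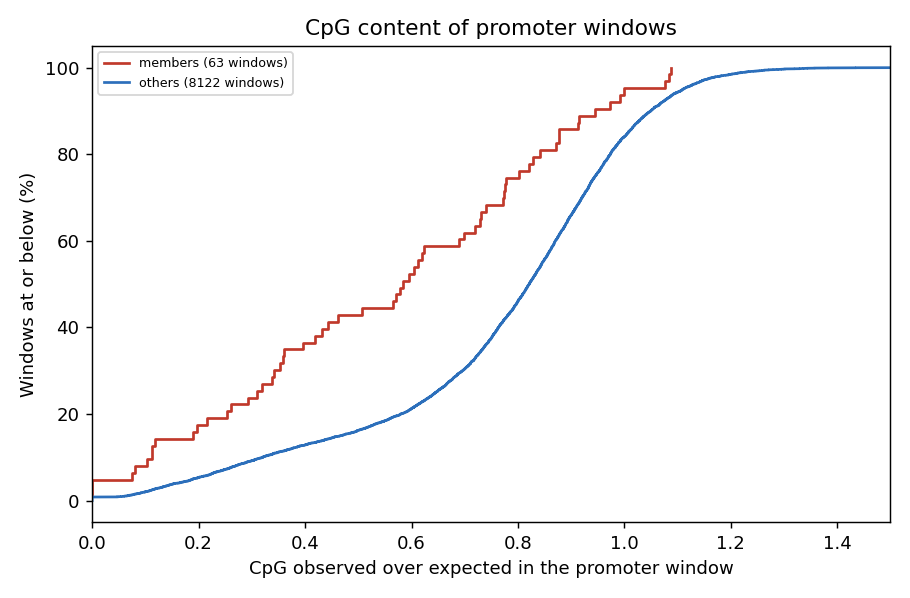
Cumulative share of promoter windows (vertical axis, %) at or below each observed over expected CpG ratio (horizontal axis), for the 63 windows of the genes (red) and for 8122 windows of the other symbols of at least 20 TPM in TeloHAEC control (blue). The red curve lies to the left of the blue, with a median of 0.584.

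5 windows are printed to show both kinds, with CpG dinucleotides in capitals, 5′ to 3′ on the strand of the gene and ending at the base before the start that lies farthest upstream. PRDX2 (chr19:12801801-12802050, minus strand), the gene of the highest level, has 38 CpGs in 250 bases, and DAPK1 (chr9:87497617-87497866, plus strand) has 32. CHFR (chr12:132887619-132887868, minus strand), a mitotic checkpoint ubiquitin ligase, has 28. The endothelial genes FGD5 (chr3:14818712-14818961, plus strand) and BMX (chrX:15500557-15500806, plus strand) have 4 and 5.
PRDX2: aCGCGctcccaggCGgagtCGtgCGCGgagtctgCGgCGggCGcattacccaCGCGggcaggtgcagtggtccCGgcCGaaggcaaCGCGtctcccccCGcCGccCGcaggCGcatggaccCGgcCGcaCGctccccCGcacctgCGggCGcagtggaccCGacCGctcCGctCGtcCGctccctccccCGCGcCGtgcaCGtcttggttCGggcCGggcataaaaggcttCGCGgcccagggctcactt
DAPK1: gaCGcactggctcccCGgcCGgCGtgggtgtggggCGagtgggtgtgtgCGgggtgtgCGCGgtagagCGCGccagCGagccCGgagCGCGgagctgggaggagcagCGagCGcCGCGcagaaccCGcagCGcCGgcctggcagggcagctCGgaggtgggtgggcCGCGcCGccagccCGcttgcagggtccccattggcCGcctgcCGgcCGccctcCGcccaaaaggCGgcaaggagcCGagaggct
CHFR: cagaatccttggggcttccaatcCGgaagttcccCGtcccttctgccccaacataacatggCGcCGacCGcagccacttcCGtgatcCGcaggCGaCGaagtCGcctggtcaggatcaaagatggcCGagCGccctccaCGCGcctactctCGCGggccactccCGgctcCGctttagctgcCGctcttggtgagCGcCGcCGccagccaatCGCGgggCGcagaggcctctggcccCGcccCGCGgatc
FGD5: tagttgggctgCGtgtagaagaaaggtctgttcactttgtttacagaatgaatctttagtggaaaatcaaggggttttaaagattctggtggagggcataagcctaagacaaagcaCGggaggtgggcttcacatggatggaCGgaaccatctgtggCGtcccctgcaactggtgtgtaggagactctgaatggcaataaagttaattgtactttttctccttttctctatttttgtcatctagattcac
BMX: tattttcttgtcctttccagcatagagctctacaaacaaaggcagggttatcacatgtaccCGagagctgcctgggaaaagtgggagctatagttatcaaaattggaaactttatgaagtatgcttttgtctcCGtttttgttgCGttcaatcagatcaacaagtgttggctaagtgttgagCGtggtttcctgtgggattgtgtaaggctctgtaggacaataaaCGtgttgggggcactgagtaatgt
The letters TATAAA, on either strand, were found in the windows of 5 of the 40 genes (12.5%), IL1R1, CD200, KCNAB1, PLEKHG1 and ANO4, beside 7.28% of the expressed symbols and 11.8% of all. The letters CCGGAAGT, on either strand and not overlapping the former, were found for 1 gene, CHFR (2.5%), beside 9.62% and 5.41%.

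The genes next to the 58 were read for their levels in both lines. In GENCODE 29 order, 56 of the 58 could be placed, and 78 of their 112 nearest protein-coding neighbours were at 1 TPM or more in TeloHAEC control. Of these 78, 60 (76.9%) were also at 1 TPM or more in Eahy926 control, beside 94.0% for the neighbours of other symbols of at least 20 TPM. For 17 genes both neighbours reached 1 TPM in Eahy926. PRDX2 lies between JUNB, at 25.2 ± 2.24 TPM in TeloHAEC and 25.4 ± 0.997 TPM in Eahy926, and RNASEH2A, at 86.1 ± 5.04 and 201 ± 24.0 TPM (SD, n = 3). ALDH2 lies between ACAD10, at 7.22 ± 0.440 and 11.3 ± 1.46 TPM, and MAPKAPK5, at 34.4 ± 2.41 and 47.7 ± 0.330 TPM. Only 1 pair of the 58 are neighbours, CYTL1 and the kinase gene STK32B. Both are counted in the 78 and, being silent in Eahy926 by the rule itself, not in the 60. TNFSF12 overlaps a read-through transcript that is listed at 0, so reads of the pair may have been shared between them.

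In the CRISPRi cells 56 of the 58 had values, all at 1 TPM or more and 43 at 20 TPM or more in the non-targeting mean. GSTT1 and XIST had none, and C8orf4 and CXorf36 were found as TCIM and DIPK2B. This block was quantified apart from the parental one, so levels are not compared between them. Targets stood at 2.58% to 40.9% of the non-targeting mean, except under MAP2K5 guide A11 (105%) and NFAT5 guide D7 (97.1%), which were not reduced. PDCD10 guide G1 was the one at 40.9%. All 10 knockdowns share the 4 non-targeting libraries. The 2 libraries of a target carry different guides and were taken as replicates in the tests. The spread within a target therefore includes how far each guide reduced it, and the p-values do not measure spread between repeats of 1 guide.

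Knockdown of the cerebral cavernous malformation (CCM) complex moved many of the genes. This complex of scaffold proteins restrains MEKK3 signalling in endothelium. With CCM2 knockdown 26 of 56 were called, 11 higher and 15 lower, against 14% of all genes. With ITGB1BP1, which encodes a binding partner of the complex, 12 were called, 7 higher and 5 lower, against 7.7%, and 8 of 11 were higher after scaling by the median of ratios. With PDCD10 19 were called, 2 higher and 17 lower, against 7.04%. MESDC1 gave 1, against 0.552%. These counts rest on single libraries: CCM2 gave 8 without guide F6, ITGB1BP1 gave 2 without guide C7, and PDCD10 gave 0 without guide D11 and 33 without guide G1.

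The other 6 targets gave 0 calls by limma. On simulated data the KLF2 comparison recovered 26.9% of log2 changes of 0.5 and 70.1% of log2 changes of 1, so real changes can be missed. IGFBP5 stood at 36.9 and 53.3 TPM with the MAP3K3 guides and was not called. Its non-targeting libraries stood at 112 to 186 TPM. For MAP2K5 and NFAT5 the test holds a guide that did not reduce its target (A11 and D7), so their 0 calls decide little. Of all genes, 0.0141% were called for CDH5 and for KLF2, 0.00707% for NFAT5 and for MEF2A, 0% for MAP2K5 and 0.0566% for MAP3K3. At an unadjusted p under 0.05, CDH5 and NFAT5 gave 0 of the genes, MAP2K5 3, MAP3K3 4, MEF2A 4 and KLF2 5. The share of all genes at that unadjusted level was not computed, so these counts are not read as an excess. Without the MEF2A guide H10, 3 were called for that target.

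IGFBP5 had the largest rise in all 3 of these knockdowns. It stood at 169, 186, 139 and 112 TPM with non-targeting guides, at 859 and 2288 TPM with the CCM2 guides, at 1808 and 1108 TPM with the ITGB1BP1 guides and at 2780 and 237 TPM with PDCD10 guides D11 and G1. All 6 values were above every non-targeting library, and G1, the guide that left the most of its target, gave the lowest. The log2 changes were 3.23 ± 0.60 (SE, limma adjusted p = 0.00168), 3.24 ± 0.60 (0.00318) and 2.44 ± 0.60 (0.0230). Leaving out CCM2 guide F6 (adjusted p = 0.0807), ITGB1BP1 guide C7 (0.0811), PDCD10 guide D11 (0.712) or, for PDCD10, non-targeting library 3 (0.0546) ended the call. The PDCD10 call also ended with no filter (0.119) and with only the groups compared (0.225).

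CHST15, a chondroitin sulfotransferase, had the largest fall in the same 3. It stood at 62.5, 68.5, 60.9 and 55.2 TPM with non-targeting guides, at 23.8 and 9.86 TPM with CCM2, 25.0 and 24.4 TPM with ITGB1BP1 and 9.83 and 40.5 TPM with PDCD10 guides. No knockdown library reached the non-targeting range. The log2 changes were -1.93 ± 0.35 (SE, limma adjusted p = 0.00136), -1.29 ± 0.35 (0.0311) and -1.56 ± 0.35 (0.0157). The CCM2 call ended without guide F6 (0.0863) and the PDCD10 call without guide D11 (0.630), with no filter (0.0851) and with only the groups compared (0.195). The ITGB1BP1 call ended without either guide (0.186 and 0.154) and without non-targeting library 1, 2 or 3 (0.0603, 0.0644 and 0.0591), and with no filter (0.139).

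Other genes moved with 1 or more of these targets. IL1R1 stood at 14.1, 17.9, 16.1 and 13.0 TPM with non-targeting guides and at 38.2 and 52.1 TPM with the CCM2 guides, and was called higher there. GDF3 stood at 7.22, 10.7, 7.32 and 5.52 TPM with non-targeting guides, and at 28.2 and 30.3 TPM with CCM2 and 30.2 and 24.4 TPM with ITGB1BP1 guides, where it was called higher. BMX, TNFRSF19, SUSD5 and CYTL1 were called lower with CCM2 and PDCD10. In that order they stood at 6.43, 17.0, 15.0 and 19.3 TPM with PDCD10 guide D11. With guide G1 they stood at 28.1, 54.8, 35.6 and 77.7 TPM. No PDCD10 call was left without guide D11, with no filter or with only the groups compared. How the other calls of this paragraph held under the alternatives is not given. FGD5 was called higher with CCM2 and ITGB1BP1, at 140 and 152 TPM against 107 TPM. PRDX2 and ALDH2 were called with none of the 10 targets.

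**Figure D5:**
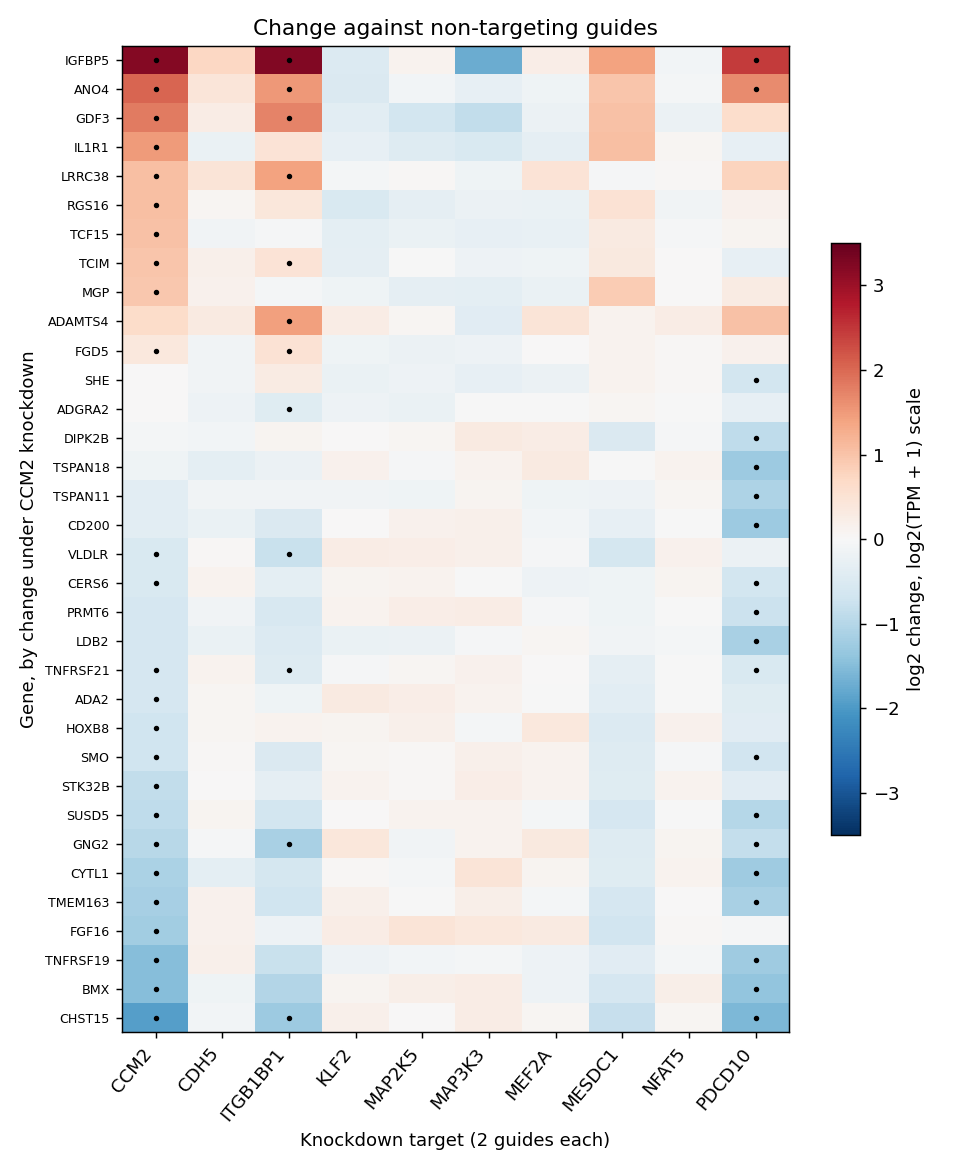
Log2 change against the non-targeting guides, on the log2(TPM + 1) scale (colour, from blue for lower to red for higher), of 34 genes called with at least 1 target (rows) for each of 10 knockdown targets (columns, 2 guides each); black dots mark an adjusted p under 0.05, and 1 other called gene is not drawn. Dots lie in the CCM2, ITGB1BP1 and PDCD10 columns.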

How the data were processed

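The authors deposited 1 table of TPM for 52 libraries, per the file headers. Reads were handled with Bowtie2 and kallisto on hg19, per the submitters' processing notes, which give no versions. The parental block (28 libraries) and the CRISPRi block (24) hold different symbols and were analysed apart. Depth is unknown, since TPM keep no counts, and TPM are shares, so a rise in abundant genes lowers others.

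From these, log2(TPM + 1) was fitted with limma 3.58.1 (R 4.3.3; trend, empirical Bayes) after a filter of at least 1 TPM in at least 3 parental libraries, or 2 for controls 0 and CRISPRi. This left 13542, 13735 and 14143 genes. Calls needed a two-sided Benjamini-Hochberg adjusted p under 0.05 over all of them. The parental fit pools the spread of both lines. The SE of a change in TeloHAEC therefore also holds the spread of the near-0 values in Eahy926, and the reverse. Which line gives more of it differs by gene. For ALDH2 the Eahy926 libraries with VEGF were at 0, 0.308 and 0 TPM, a wider spread on the log2 scale than that of its TeloHAEC controls. The fits were tested on simulated data.

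The genes and the lists were chosen with earlier results of these data known. Genes named in the text are PRDX2, ALDH2, the 15 of highest level, those in a list, those beside a threshold, neighbours, the 3 largest called rises and falls of each TeloHAEC treatment and the largest of each knockdown; others were chosen after their values were seen. Replicate numbers did not pair the libraries: over 18 pairs a line the mean residual correlation was -0.00078 in TeloHAEC and 0.0125 in Eahy926, with 0 pairs over 0.1. Gene order came from GENCODE 29, in which GSTT1 and XIST were not placed. 1 gene of the set is counted but not otherwise reported here, also where the rule for named genes would name it.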

Additional observations from a re-analysis of the deposited data

Results flagged for a closer look

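2 of the genes had a non-targeting CRISPRi library far from the other 3, among 55 genes looked at. FGD5 stood at 99.5 TPM in the lowest, with the nearest other at 110 TPM. TSPAN11 stood at 182 TPM in the highest, with the nearest other at 168 TPM. Chance flags about 1 in 20 such groups.

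The limma test of the difference in IL-1β response between the lines was called for 5 genes, picked from those with the largest changes in TeloHAEC. The log2 change in TeloHAEC minus that in Eahy926 was -1.90 for TSPAN11, -1.79 for RGS16, 2.03 for BMP2, 1.36 for CD200 and 1.32 for C8orf4. With TNF-α it was -1.40 for G0S2, -1.21 for IGFBP5, 1.80 for BMP2, 0.87 for ADAMTS4 and 0.79 for C8orf4. With a pseudocount of 0.1 the TNF-α differences of BMP2 (0.49, limma adjusted p = 0.531) and C8orf4 (0.57, adjusted p = 0.112) were no longer called. The Eahy926 levels of these genes lie near 0, which limits how far they can fall there. The genes were picked for their change in TeloHAEC and entered the fit through TeloHAEC alone. For rises as for falls, the difference therefore largely restates the TeloHAEC response and is no separate result about Eahy926.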

How the results depend on the processing

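The set held 100 genes with a TeloHAEC limit of 10 TPM, 15 with 50 TPM, 33 with an Eahy926 limit of 0.01 TPM and 109 with 1 TPM. Controls 0.1 and 0.2 in place of 1.1 to 1.3 gave 60, of which 40 were shared, and all 5 controls of each line gave 45, of which 44 were shared. Leaving out a control gave 57 to 65. With a pseudocount of 0.1 the calls were 21 for TNF-α in TeloHAEC, 4 for VEGF-free medium, 21 and 12 for the IL-1β and TNF-α differences between lines, 1 (ADGRA2) for VEGF in Eahy926 and 0 for MESDC1. With only the groups compared they were 0 for TNF-α in Eahy926, 0 for PDCD10 and 5 for MESDC1. With no filter the knockdown calls were 25 in place of 58, with 7 for ITGB1BP1, 0 for MESDC1 and 0 for PDCD10. MESDC1 gave 3 with a filter of 5 TPM, with scaling by the median of ratios and with quantile normalisation. Leaving out 1 library gave 0 to 1 for TNF-α in Eahy926, 9 to 15 for VEGF-free medium and 37 to 87 for the knockdown calls. By target the range was 8 to 26 for CCM2, 2 to 10 for ITGB1BP1, 0 to 1 for MESDC1, 0 to 33 for PDCD10 and 0 to 3 for MEF2A. The lowest total, 37, came without the third non-targeting library, which also gave 7 for ITGB1BP1 and 7 for PDCD10, and the highest, 87, without PDCD10 guide G1. PDCD10 gave 11 without the first or the second non-targeting library. Without the 2 libraries whose target was not reduced, an alternative chosen after seeing the data, the total was 52. The cause of these shifts was not tested. With the replicate number as a block, the calls were 42 for IL-1β, 35 for TNF-α and 15 for VEGF-free medium in TeloHAEC, and no other call count in the parental cells changed. Of 584 single-gene values under an alternative, for 36 results, 561 kept their call, 23 lost it and 0 reversed. Unknown depth limits what values under 0.1 TPM can show.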
